A study of Mus musculus with 17 samples.

Results

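DNA methylation was examined at 43 CCCGGG sites in the genes of Wnt ligands, their receptors and their secreted antagonists, in whole blood of 17 C57BL/6 mice. A site was kept when 13 or more of the 17 mice had 50 or more reads there, and it lay between 1000 bp before the start and the end of 40 listed genes. They were 43 of the 18884 autosomal sites that met the same depth rule and 43 of the 206 CCCGGG sites in the windows of these genes. Only 16 of the 40 genes held such a site. Ligands had 21 sites in 9 genes (Wnt2b, Wnt3, Wnt3a, Wnt4, Wnt5a, Wnt5b, Wnt7b, Wnt9a and Wnt9b), receptors had 20 sites in 6 genes (Fzd1, Fzd5, Fzd7, Fzd10, Lrp5 and Lrp6), and Sfrp2 alone, with 2 sites, stood for the antagonists. The other 24 genes were not analysed here, because 3 of them (Dkk4, Sfrp4 and Wnt16) had no CCCGGG site in the window and 21 had only shallower sites.

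The assay was DREAM (Digital Restriction Enzyme Analysis of Methylation), which reports for each CCCGGG the share of reads whose ends show that the central CpG was methylated. AL-young were 5 mice fed ad libitum and aged 4 months, AL-old were 7 mice fed ad libitum and aged 29 to 33 months, and CR-old were 5 mice kept on caloric restriction and aged 32 to 38 months. All were of the same inbred strain, and females numbered 2 in AL-young, 5 in AL-old and 2 in CR-old. Reads counted at the listed sites, spiked standards included, numbered 6.43 M to 52.0 M a mouse, and the median depth of the Wnt sites ran from 67 to 1328 reads. Values given as adjusted are the percent methylation that the authors corrected with spiked standards, and raw values are uncorrected. The correction multiplied the odds of methylation by a factor from 0.872 to 1.13 in 11 mice and from 1.40 to 3.96 in the other 6. Those 6 were all 5 female AL-old mice and CR-old 06, with no AL-young mouse among them, so a high correction cannot be told apart from being an old female fed ad libitum. AL-old 27 also stood apart, with a factor of 0.904, since 13 of its 31 measured CpG-rich Wnt sites reached 5% against 2 to 8 in each of the other AL-old mice.

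Wnt proteins are secreted lipid-modified signals that bind Frizzled receptors together with the co-receptors Lrp5 and Lrp6. In the canonical branch this binding keeps β-catenin from being degraded so that it can act with TCF/LEF factors on target genes, and other branches act on cell polarity and calcium. Secreted Frizzled-related proteins such as Sfrp2 bind Wnts outside the cell, and Dkk proteins block the co-receptors. In blood the pathway is known for its part in haematopoietic stem cells and in T cell development. Promoters of these developmental genes usually lie in CpG islands, which are unmethylated in most normal tissues.

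The sequences below show the sites on which the results turn, from NCBIM37 (mm9), with each CCCGGG in capitals and the strand of the gene. Sites are named by the distance in bp from the gene start in GENCODE release M1. The first is the stretch before the Fzd10 start, at chr5:129106378-129106617 (plus strand), which holds the sites at -326 and -139 and 12 CpGs in 240 bases.
Fzd10 upstream: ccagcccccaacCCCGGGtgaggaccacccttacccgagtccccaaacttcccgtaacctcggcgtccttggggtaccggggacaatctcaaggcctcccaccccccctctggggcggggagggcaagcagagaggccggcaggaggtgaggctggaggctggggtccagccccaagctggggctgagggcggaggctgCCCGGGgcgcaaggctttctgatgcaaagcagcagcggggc
The next windows of 30 bases each hold 1 site. Fzd10 +4 (chr5:129106708-129106737) and +236 (chr5:129106940-129106969) lie in the untranslated region and Lrp5 +453 (chr19:3686096-3686125, minus strand) in an intron. Sfrp2 +203 (chr3:83570431-83570460) also lies in the untranslated region, and Wnt3 +12721 (chr11:103648170-103648199) is shown as an intronic site of low CpG density.
Fzd10 +4: aagtcttctcatCCCGGGacgccgtgctgg
Fzd10 +236: caccgcggtggcCCCGGGcgccgcgagcgc
Lrp5 +453: gcatcgcgatggCCCGGGacaggcctggcc
Sfrp2 +203: ctccctccgcccCCCGGGggtcgctagtcc
Wnt3 +12721: taggatgacagtCCCGGGcttccatctatg
The window at Fzd10 +236, the site with the highest AL-old value among the receptors, held 7 CpGs, the Lrp5 and Sfrp2 windows 3 each and the Wnt3 window 1.

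In AL-young mice the Wnt sites fell into a low and a high class. Of the 43 sites, 36 lay in CpG-rich windows, meaning that the surrounding 500 bp had 50% GC or more and an observed to expected ratio of CpG from 0.6 upwards, and 31 were in promoters (1000 bp before to 500 bp after a start). CpG-rich windows held 55.1% of all tested sites. All 36 CpG-rich sites had AL-young means of 0.0800 to 3.24%. The 7 other sites were all in ligand genes, and 5 of them had AL-young means above 80%. These were the intronic Wnt3 pair, Wnt7b +43729 and the Wnt9b sites at +18455 and +18831. Wnt7b +43393 stood between at 57.4% ± 3.21 (SD, n = 5), and Wnt5a +7096, in a coding exon, was low at 1.93% ± 0.659 (SD, n = 5).

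**Figure D1:**
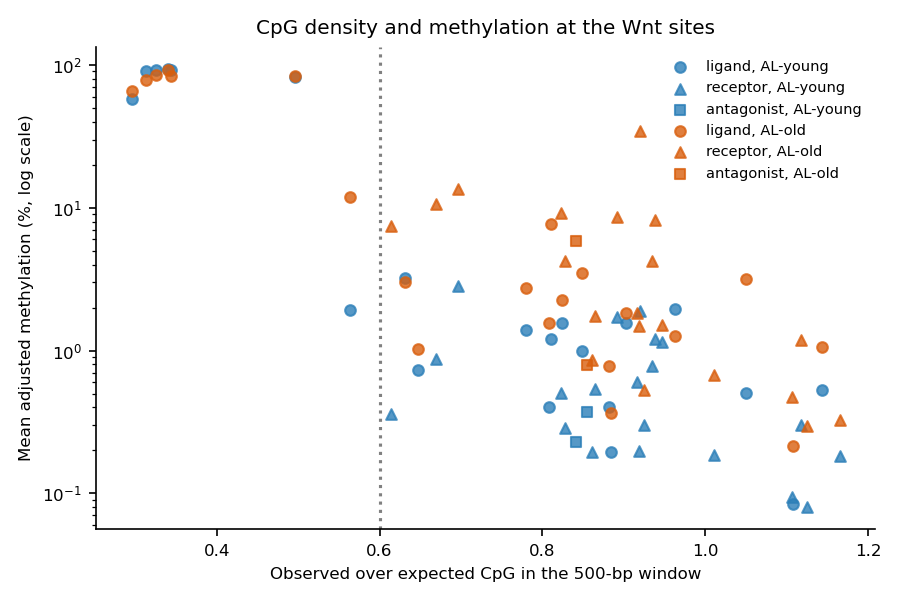
Mean adjusted methylation (percent, log scale) of each Wnt site against the ratio of observed to expected CpG in its 500-bp window, for AL-young (blue) and AL-old (orange), with the shape giving the role and the dotted line the 0.6 limit. Sites right of the line lay at or below 3.24% in AL-young, and the high values on the left are ligand gene bodies.

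A difference was called when the adjusted p-value (Benjamini-Hochberg over all 18884 sites) of the edgeR quasi-likelihood test was under 0.05 and the raw group means were at least 2 points apart. In fits with the correction factor as an offset or with limma, means of adjusted methylation took the place of raw means. Between AL-old and AL-young, 5 of the 43 Wnt sites were higher and 0 were lower in AL-old, where 3.96% of all tested sites were called higher and 6.01% lower. Of CpG-rich sites in general 5.89% were called higher, and all 5 called Wnt sites were among the 36 CpG-rich ones. The called sites were 4 of the 6 in Fzd10 and 1 of the 3 in Lrp5, so all were in receptors, and the 4 share 1 promoter. At an unadjusted p under 0.05 there were 11 Wnt sites (25.6%, beside 22.4% of all sites). Of these 10 were CpG-rich (27.8% of the 36, beside 15.4% of all CpG-rich sites). Among the 30 CpG-rich Wnt sites outside Fzd10 the share was 13.3%. The other site was Wnt3 +12721, which was lower in AL-old. Limma called 0 Wnt sites lower in AL-old, where it called 655 of all 18884 sites lower. Between CR-old and AL-old 0 of the 43 sites were called in either direction by edgeR, where 1.58% of all sites were called higher and 1.76% lower in CR-old. Of these Wnt sites 5 (11.6%, beside 15.8% of all sites) had an unadjusted p under 0.05, and limma on adjusted methylation called 4 lower in CR-old, where it called 6.61% of all sites lower. Between CR-old and AL-young 0 Wnt sites were called by edgeR or limma, with 5 (11.6%, beside 6.83% of all sites) at an unadjusted p under 0.05, and the share of all sites called by edgeR was 0% both higher and lower. Whole blood is a mixture, and a change in the share of a cell type cannot be told apart from a change of methylation within cells.

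**Figure D2:**
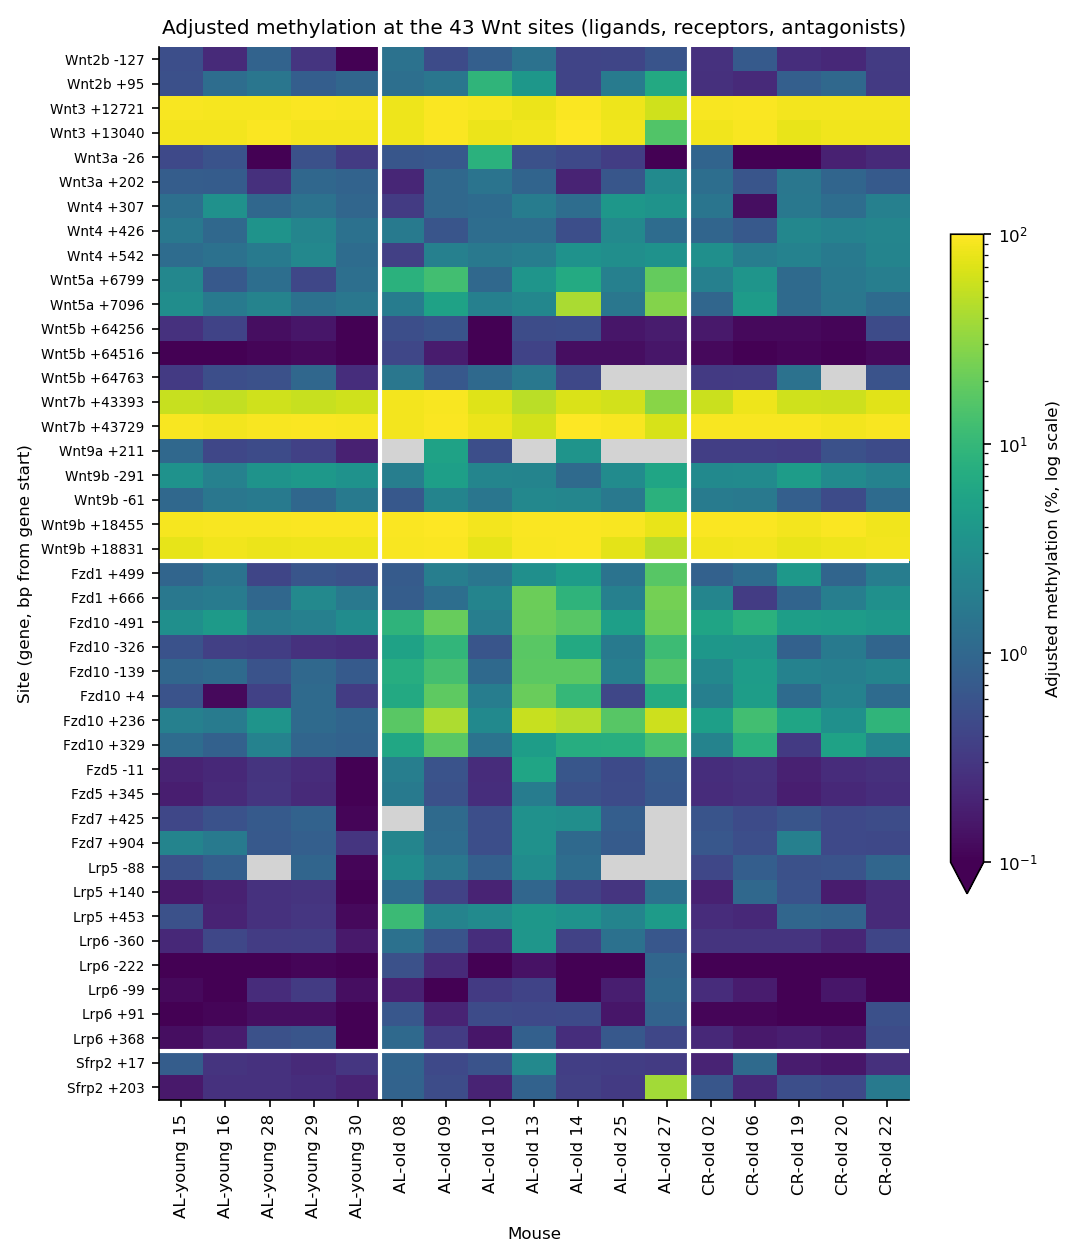
Adjusted methylation (colour, percent on a log scale, values under 0.1% in the darkest colour) of the 43 Wnt sites in rows, by role and then gene, in each of the 17 mice in columns, with white lines between groups and roles and grey for under 50 reads. The Fzd10 block is brighter in most AL-old mice, from 0.430 to 59.5%, than in AL-young mice, from 0.120 to 4.33%, and CR-old lies between.

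Among the receptors, Fzd10 carried most of the difference with age. Fzd10 is a Frizzled, a membrane receptor that binds Wnts, and its gene (ENSMUSG00000081683.3, chr5:129106719-129109968, plus strand) had 6 sites between -491 and +329. Adjusted methylation averaged over these sites was 1.27% ± 0.223 (SD, n = 5) in AL-young, 13.9% ± 8.51 (SD, n = 7) in AL-old and 3.89% ± 1.78 (SD, n = 5) in CR-old. By mouse the averages were 1.41, 1.43, 1.48, 1.08 and 0.992% in AL-young. In AL-old they were 8.63, 20.0, 1.59, 22.7, 17.5, 5.55 and 21.4% in mice 08, 09, 10, 13, 14, 25 and 27. In CR-old they were 3.53, 7.01, 2.51, 3.15 and 3.28% in mice 02, 06, 19, 20 and 22. AL-old 10 lay next to the AL-young mice, the other 6 AL-old mice spread over a wide range, and the CR-old mice lay above every AL-young mouse. Pooled over the 6 sites, 270 of 34650 reads were methylated in AL-young (0.779%, 95% Wilson interval 0.692 to 0.877), 1430 of 23346 in AL-old (6.13%, 5.82 to 6.44) and 518 of 20047 in CR-old (2.58%, 2.37 to 2.81), and these intervals cover counting error only.

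The site at Fzd10 +236 had the largest difference. In AL-young it was 2.04, 1.79, 3.59, 1.09 and 0.920% in mice 15, 16, 28, 29 and 30. In AL-old it was 17.3, 42.9, 2.65, 55.7, 47.0, 16.7 and 59.5% in mice 08, 09, 10, 13, 14, 25 and 27, and in CR-old 5.0, 12.5, 5.82, 3.18 and 9.06%. Of the 7 AL-old mice 6 lay above all AL-young mice, and AL-old 10 lay inside their range. The means were 1.89% ± 1.06 (SD, n = 5), 34.5% ± 22.1 (SD, n = 7) and 7.11% ± 3.68 (SD, n = 5). The raw means were 1.83, 25.2 and 6.05%, and the odds of methylation were higher in AL-old than AL-young by 4.02 ± 0.807 (SE) on the log2 scale (edgeR adjusted p = 2.40e-04). In all 7 AL-old mice this was the highest of the 6 sites, whereas in 4 of the 5 AL-young mice the site at -491 was.
The sites at -326, -139 and +4 passed the same test. Their adjusted means, for AL-young first and CR-old last, were 0.362, 7.44 and 2.22% at -326, 0.876, 10.6 and 2.69% at -139, and 0.504, 9.24 and 2.20% at +4. The log2 odds ratios of AL-old to AL-young were 3.35 ± 0.753, 2.56 ± 0.717 and 3.42 ± 0.822 (SE), with adjusted p of 1.01e-03, 0.0101 and 1.87e-03 by edgeR. At -326 every AL-old mouse lay above every AL-young mouse in adjusted but not in raw methylation, and at -139 and +4 that held for 6 of 7. The outer sites did not pass, with 1.45 ± 0.693 (SE, adjusted p = 0.194 by edgeR) at -491 and 2.57 ± 0.982 (SE, adjusted p = 0.0600) at +329, and the sites at -491 and -326 also lie within 5930412G12Rik.
The correction factor moved with this comparison, and its part in the group difference was not tested. In the 2 AL-old mice with a low factor the site at +236 was 16.7 and 59.5% against 0.920 to 3.59% in AL-young, whose factors were also low. With low-correction mice alone all 6 Fzd10 sites were called higher in AL-old, where 8.77% of all sites were. The AL-old mice of that fit, 25 and 27, are also the only AL-old males, and AL-old 27 stood apart at many Wnt sites. With the correction as a covariate, entered only as high (a factor from 1.3 upwards) or low, Fzd10 +4 lost its call. The sites at -326, -139, +236 and +329 were called in that fit, beside 4.92% of all sites. With quasi-binomial regression the sites at +236, -326 and -139 lost their calls and +4 kept its call, and in males alone -139 and +4 lost theirs. With the correction factor as an offset 8 Wnt sites were called higher against 7.63% of all sites, again including all 6 of Fzd10. With females alone, where all AL-old mice had a high factor and AL-young held 2 mice, 0 Wnt sites were called.

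**Figure D3:**
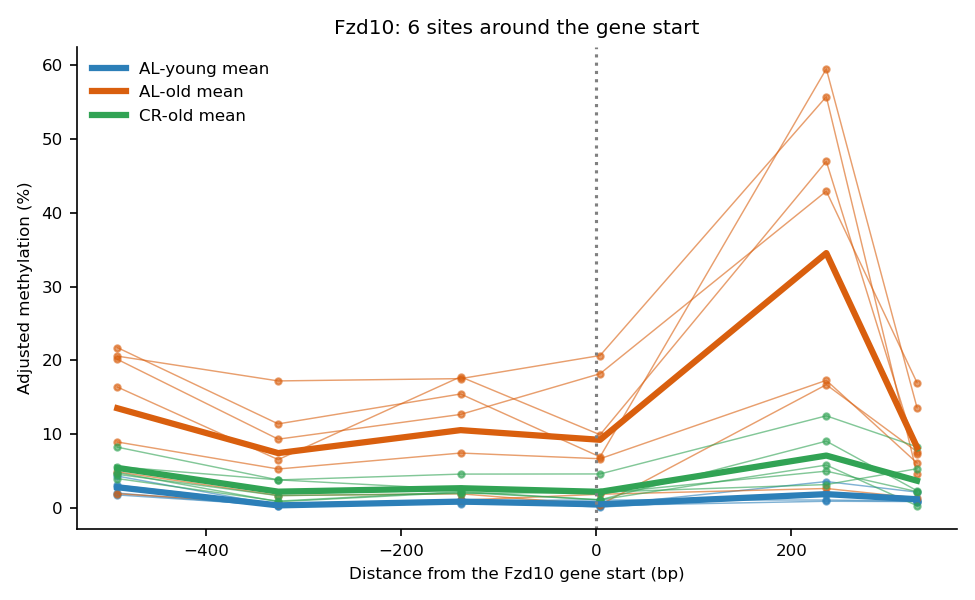
Adjusted methylation (percent) at the 6 Fzd10 sites against the distance from the gene start in bp, with a thin line per mouse and a thick line per group mean. The AL-old mean peaks at +236 at 34.5%, the CR-old mean there is 7.11% and the AL-young mean 1.89%.

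CR-old mice had lower means than AL-old mice and higher means than AL-young mice at all 6 Fzd10 sites. At +236 the CR-old to AL-old log2 odds ratio was -2.05 ± 0.748 (SE), which did not pass (edgeR adjusted p = 0.112), and at the other 5 sites it ran from -1.22 to -0.55 with adjusted p from 0.438 to 0.753 by edgeR. The +236 site was called lower in CR-old with the correction factor as an offset (-2.72, adjusted p = 0.0103 by edgeR), with limma (-2.51, adjusted p = 0.0371), with low-correction mice alone (-3.51, adjusted p = 0.0411 by edgeR), and without AL-old 08 (adjusted p = 0.0494) or AL-old 10 (adjusted p = 0.0260) by edgeR. With the offset 4 Wnt sites were called lower in CR-old against 6.98% of all sites. Against AL-young, all 5 CR-old mice lay above the AL-young range at -326, -139 and +4, and 4 of 5 did at the other 3 sites. The log2 odds ratios were 0.90 to 2.39, and none passed in the fit over 3 groups (edgeR adjusted p from 0.415 to 0.736). When only CR-old and AL-young entered the fit, which leaves out the spread of AL-old, the adjusted p by edgeR was 1.11e-03 at -326, 0.0118 at -139, 7.99e-03 at +4 and 5.33e-03 at +236. Of these only +236 had raw means 2 points apart and was called, where 0.842% of all sites were called higher.

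Lrp5 (ENSMUSG00000024913.9, chr19:3584825-3686564, minus strand), a co-receptor that binds Wnt beside a Frizzled, had 1 called site of 3. At +453 the AL-young values were 0.550, 0.200, 0.270, 0.300 and 0.120%. The AL-old values were 10.96, 2.22, 2.69, 3.82, 3.35, 2.27 and 4.49%, and the CR-old values 0.240, 0.220, 0.980, 0.910 and 0.230%. Every AL-old mouse lay above every AL-young and every CR-old mouse, in raw as in adjusted values. The raw means were 0.282% in AL-young and 2.50% in AL-old, and the odds rose by 3.96 ± 1.07 (SE) on the log2 scale (edgeR adjusted p = 2.63e-03). The reads behind this were few, 2 methylated of 2241 in AL-young, 23 of 1239 in AL-old and 4 of 1371 in CR-old, and the 10.96% of AL-old 08 rests on 4 of 120 reads and a factor of 3.19. Without AL-old 27 the adjusted p was 3.85e-03 by edgeR, but the raw means were 1.81 points apart and the site was no longer called. With 100 reads required it again missed the 2-point minimum and was not among the 4 sites called. CR-old differed from AL-old by -2.71 ± 0.938 (SE) on that scale (adjusted p = 0.0695 by edgeR), which passed with the correction factor as an offset (adjusted p = 0.0107 by edgeR) and with limma (adjusted p = 5.18e-03). The sites at +140 and -88 had AL-young means of 0.186 and 0.60%, and AL-old means of 0.673 and 1.85%. At +140 there were 0 methylated of 2559 reads in AL-young, 1 of 1425 in AL-old (in AL-old 27) and 3 of 1474 in CR-old. The CR-old mean there was 0.436%. The AL-old mean at -88 holds 0 methylated reads, since the 1 methylated read was in AL-old 27 with 22 reads, too few to enter the mean.

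Fzd1, Fzd5, Fzd7 and Lrp6 had no called site. Lrp6, the second co-receptor, had group means of 0.0680 to 1.18% over 5 sites. At its site at -222, with the deepest reads among uncalled receptor genes, AL-young ranged from 0.0400 to 0.110%, CR-old from 0.05 to 0.08% and AL-old from 0.05 to 0.970% with a median of 0.140%. This was 2 methylated of 6604 reads in AL-young, 6 of 7895 in AL-old and 0 of 4579 in CR-old, where 0 allows a share of up to 0.0655%, and the adjusted p by edgeR was 0.567 for age and 0.302 for diet. Pooled over Lrp6, 12 of 22774 AL-young reads and 22 of 21633 AL-old reads were methylated.
Fzd5 had 0 methylated reads of 4129 in AL-young, 1 of 1898 in AL-old and 0 of 2460 in CR-old, and Fzd7 had 4 of 1759, 5 of 1036 and 1 of 1093. A value for 0 methylated reads is listed above 0 because 0.5 is added to the methylated reads in the raw formula, and the correction multiplies it. At Fzd5 +345 the adjusted means of 0.196% in AL-young and 0.861% in AL-old thus held no methylated read.
Fzd1, another Frizzled, was uneven among AL-old mice. At +499 AL-young ranged from 0.420 to 1.39%, CR-old from 0.860 to 3.94% and AL-old from 0.720 to 16.5% with a median of 1.94%. At +666, chosen after its values were seen, AL-old 13, 14 and 27 had 21.3, 8.91 and 23.7% and the other 4 AL-old mice 0.770 to 2.24%, against 1.00 to 2.55% in AL-young. The log2 odds ratios for age were 1.23 ± 0.836 (SE, edgeR adjusted p = 0.393) and 0.90 ± 0.835 (SE, adjusted p = 0.559), and both were called with the correction as a covariate, by the rule of the study on correlation with age, and with low-correction mice alone, in which AL-old 27 is 1 of 2 AL-old mice.

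**Figure D4:**
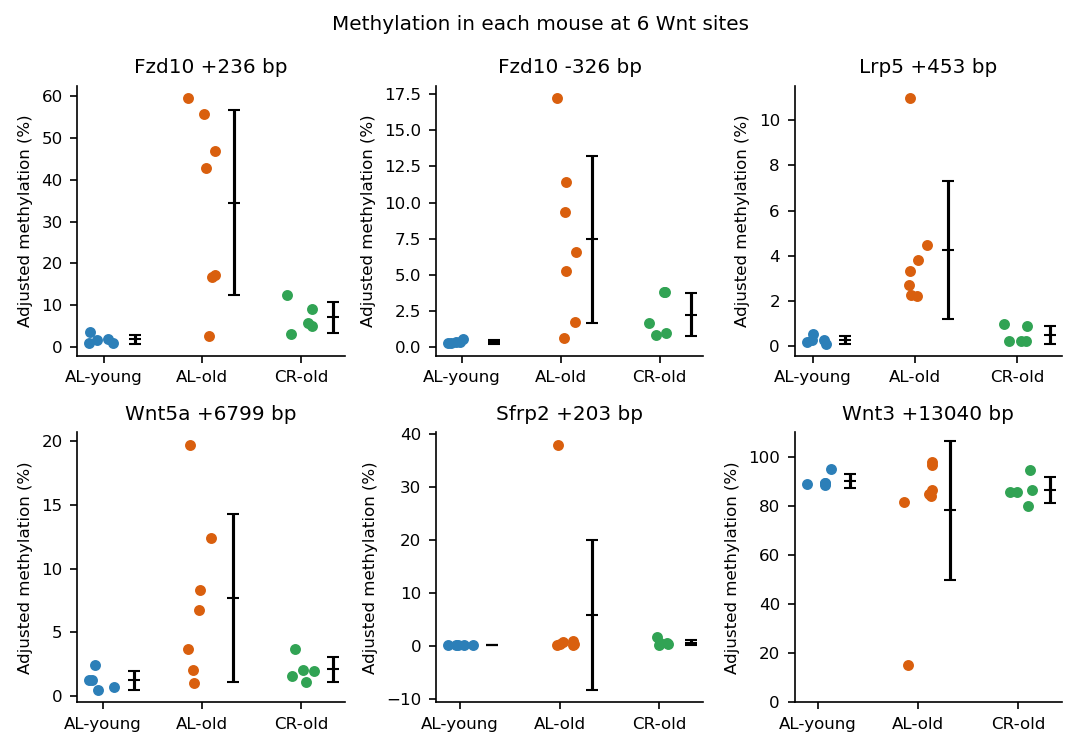
Adjusted methylation (percent) of each mouse at 6 Wnt sites, with the mean and SD (black) beside the points of each group (AL-young 5, AL-old 7, CR-old 5). Fzd10 +236 and -326 and Lrp5 +453 are higher in most or all AL-old mice, whereas Sfrp2 +203 (37.9%) and Wnt3 +13040 (15.3%) each have AL-old 27 apart from the other mice.

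The ligand genes held 0 called sites in any comparison. Their 14 CpG-rich sites had group means of 0.0840 to 3.24% in AL-young, 0.213 to 7.71% in AL-old and 0.108 to 2.96% in CR-old. In adjusted values 12 of these 14 were higher in AL-old than AL-young and in raw values 9 of 14, beside 87.3% and 60.9% of all CpG-rich sites. Most were thus higher by either measure, but how many depended on the correction. The median adjusted difference was 0.450 points for these ligand sites and 1.26 points for receptor sites, beside 0.271 points over all CpG-rich sites. In raw values these medians were 0.0657, 0.430 and 0.0375 points. The receptor medians include the 6 sites of the Fzd10 promoter. Over the 30 CpG-rich Wnt sites of all roles outside Fzd10 the median difference was 0.595 points adjusted and 0.237 points raw. Of the CpG-rich sites outside Fzd10, 28 of 30 Wnt sites were higher in AL-old by adjusted means and 24 by raw means.
Wnt4, a signal known from kidney and gonad development, had the deepest ligand site at +426, in an intron. It ranged from 1.04 to 3.49% in AL-young (median 1.59%), 0.530 to 2.56% in AL-old (median 1.17%) and 0.680 to 2.43% in CR-old (median 2.12%), and the groups overlapped (age difference in log2 odds -1.41 ± 0.723, SE, and adjusted p = 0.228 by edgeR). Wnt3a, a canonical signal, had 0.260 to 1.01% at +202 in AL-young, 0.200 to 2.74% in AL-old and 0.620 to 1.55% in CR-old (adjusted p for age = 0.832 by edgeR).
Wnt5a, best known for signalling outside the β-catenin branch, had a wide spread among AL-old mice, and its sites were chosen after their values were seen. At +6799, 98 bp after an internal transcription start, AL-old had 8.35, 12.4, 1.03, 3.67, 6.78, 2.00 and 19.7% against 0.440 to 2.42% in AL-young and 1.09 to 3.71% in CR-old. This lay above the AL-young range in 5 of 7 mice, and the log2 odds ratio for age was 1.68 ± 0.771 (SE), with an adjusted p of 0.164 by edgeR, and it was called higher in AL-old with the correction factor as an offset, with limma, with low-correction mice alone and by the rule of the study. At +7096 AL-old 14 had 42.1% (160 of 469 reads) and AL-old 27 had 28.1% (61 of 203 reads) while the other 5 had 1.55 to 5.40%.
Wnt9a +211 and Wnt2b +95 were called lower in CR-old than AL-old with the offset and with limma, but not in the test reported. Both fits took the 2-point minimum on adjusted means, and CR-old minus AL-old in raw means at Wnt9a +211 was -1.40 points. Over all 7 AL-old mice, of which 3 had 50 reads, Wnt9a had 4 methylated of 422 reads, and 0 of 732 in CR-old (edgeR adjusted p = 0.128). Wnt2b had 27 of 1144 reads in AL-old, 17 of them in AL-old 10, and 3 of 1166 in CR-old (adjusted p = 0.184).
The 3 Wnt5b sites lay in an intron of the longest transcript, 2 of them within Fbxl14, and held 3 methylated of 10359 reads in AL-young and 3 of 7442 in AL-old.

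The ligand gene bodies had 0 called sites but a wide spread among AL-old mice. Wnt3 +12721 was 89.98 to 95.6% in AL-young, 60.5 to 96.9% in AL-old and 88.1 to 95.2% in CR-old, and the log2 odds ratio for age was -1.59 ± 0.683 (SE), with an adjusted p of 0.134 by edgeR. Of the 2 fits that called it lower in AL-old, 1 used low-correction mice alone and 1 left out AL-old 14. At Wnt3 +13040 AL-old 27 had 15.3% (20 of 122 reads), and the other AL-old mice had 81.9 to 97.8%. Wnt7b +43729 ranged from 61.8 to 98.8% in AL-old against 87.7 to 95.1% in AL-young and 89.5 to 94.1% in CR-old (adjusted p = 0.226 by edgeR). Wnt7b +43393 ranged from 29.2 to 93.0% in AL-old against 53.1 to 60.7% in AL-young. At +43393 the SD was 3.21 points over 5 AL-young mice and 22.1 points over 7 AL-old mice, which spread to both sides of the young ones. In raw values 6 of the 7 sites outside CpG-rich windows were lower in AL-old and in adjusted values 4 of 7, beside 5985 and 4496 of the 8485 such sites in all.

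Sfrp2 (ENSMUSG00000027996.7, chr3:83570243-83578238, plus strand), the only antagonist measured, was close to unmethylated. At +17 the AL-young values ran from 0.230 to 0.770%, the AL-old values from 0.330 to 2.56% and the CR-old values from 0.150 to 1.10%, from 5, 2 and 2 methylated reads of 2225, 1465 and 1493. At +203 the value of AL-old 27 was 37.9% (58 of 144 reads), and the other 16 mice had 0.160 to 1.66%. The AL-old mean of 5.87% ± 14.1 (SD, n = 7) thus rested on 1 mouse, and the log2 odds ratio for age was 2.08 ± 1.73 (SE), with an adjusted p of 0.441 by edgeR. It was called with sex or the correction as a covariate, with low-correction mice alone, which keeps AL-old 27, and by the rule of the study. No methylated read was found at +203 in the other 6 AL-old mice.

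**Figure D5:**
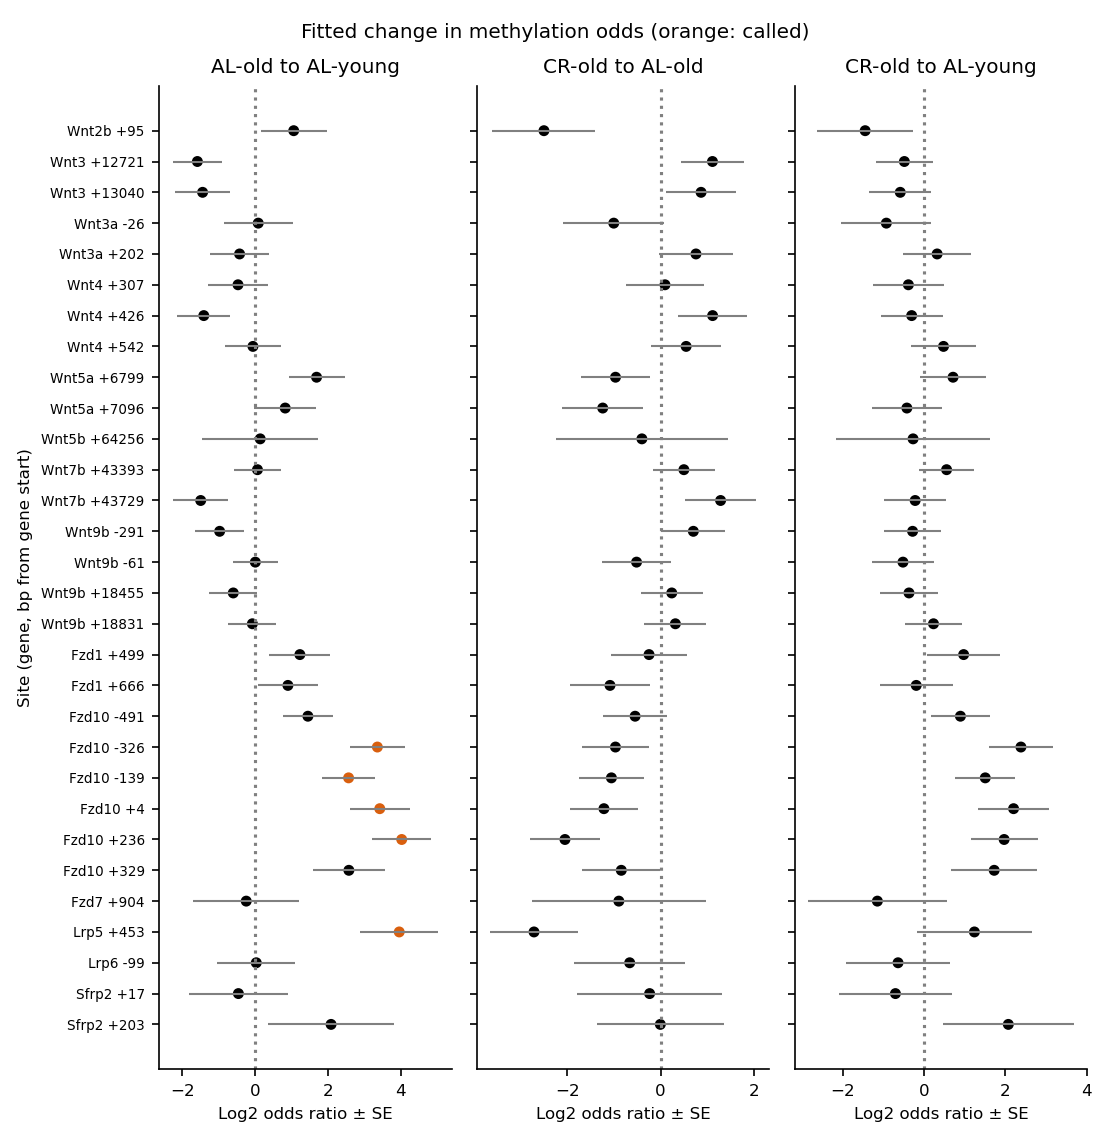
Log2 odds ratio of methylation with its SE for the 30 Wnt sites whose SE was under 2 in every comparison, in 3 panels (AL-old to AL-young, CR-old to AL-old, CR-old to AL-young), orange for called sites. The called sites are Fzd10 -326, -139, +4 and +236 and Lrp5 +453 in the first panel, from 2.56 to 4.02.

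Other genes of the pathway were taken from a list of 59, of which 37 had 112 tested sites. Between AL-old and AL-young 13 of the 112 (11.6%) were higher, beside 3.96% of all sites and 5.89% of all CpG-rich sites. Another 2 (1.79%) were lower, beside 6.01% of all sites, and the called sites lay in 8 genes together. Sites of 1 gene were counted separately, with 3 higher sites each in Axin2 and Vangl1 and 2 each in Bcl9l and Tle1. CR-old was lower than AL-old at 9 sites (8.04%) in 5 genes and higher at 0 by edgeR, beside 1.76% and 1.58% of all sites. Between CR-old and AL-young 0 pathway sites differed, beside 0% of all sites. By size of the raw difference the leading genes higher with age were Bcl9l, Kremen1 and Tcf7, and the others were Axin2, Kremen2, Tle1 and Vangl1. Bcl9l, a co-activator that links β-catenin to Pygo proteins, had 0.588% ± 0.538 at -87 in AL-young, 42.9% ± 31.2 in AL-old and 2.18% ± 1.66 in CR-old (SD over mice with 50 reads). Kremen1, a receptor for Dkk proteins, went from 37.0 to 72.1% in an intron and Tcf7, a TCF factor of T cells, from 45.3 to 78.6% in an intron. The lower sites were Rspo4 +27979 (90.8 to 70.8%), of an R-spondin ligand that enhances Wnt signals, and Bcl9l +10033 (97.5 to 85.8%). Both lost their calls with the correction factor as an offset (adjusted p of 0.0778 and 0.156 by edgeR), and both, with Kremen1 and Tcf7, lost the call for age with the correction as a covariate or with low-correction mice alone (adjusted p from 0.0769 to 1.0 by edgeR). CR-old was below AL-old at Tcf7 (38.0%), at 2 of the 3 promoter sites of Bcl9l, at Axin2, at 1 site of Vangl1 and at Tle1, a co-repressor of TCF factors, whose site at +268 averaged 0.238% in the young, 22.1% in the AL-old and 1.10% in the CR-old mice. The marker list of blood cell types had tested sites in 5 of 36 genes, 11 in all. Of these 11 sites 2 (18.2%) were called lower in AL-old, beside 6.01% of all sites, and 0 higher. They were 1 intronic site each of Cd3g of T cells (87.5 to 61.1%) and Itgam of myeloid cells (92.4 to 57.6%). Their adjusted p was 0.618 and 0.129 by edgeR when the correction was a covariate. The part of cell shares in the Wnt results was not tested.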

How the data were processed

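DREAM data from whole blood of 17 mice were analysed. The authors digested DNA with SmaI, which methylation blocks, and XmaI, which it does not, and mapped the reads to mm9. The submitters' processing notes also name Bowtie2, SAMtools and mm10, without roles. The deposited tables give for each site and mouse the counts of methylated, unmethylated and all reads and 2 columns in percent, raw and adjusted by the authors with spiked standards. The raw percent followed 100 times methylated reads plus 0.5 over all reads plus 1.

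The genes and their roles, the members, the lists and the tests were chosen with earlier results of these data known. Sites were annotated with NCBIM37 and GENCODE release M1, and 2 genes of the other lists were matched by older symbols. A value under 50 reads was treated as missing in means, while the tests used all reads. At 50 reads a site at 50% has a 95% Wilson interval from 36.6 to 63.4%, and 3 reads make 6%. The test on counts was edgeR's quasi-likelihood test (edgeR 4.0.16, R 4.3.3) with 1 term per mouse for its depth, 1 methylation term per group and 1 dispersion (0.288) for the 18884 sites. The fitted odds ratio weights mice rather than reads, and its SE is approximate. Positions, counts and intervals used Python 3.11.15 and scipy 1.17.1, and limma 3.58.1, quasi-binomial regression and the rule of the study were alternatives. That rule, a Spearman correlation of adjusted methylation with age, was run here on the 12 AL mice, all young or old. The study also had middle-aged mice and a higher depth limit, and no share over all sites is given for this rule. The scripts were tested on simulated data. Genes with a called site were named, and for the others the promoter site of highest median depth in 2 genes per role was given in full, while further sites were added after their values were seen. No source ties an adapter, instrument or date to a mouse. All 41 pairs of mice within a group differed by more than counting noise, with a mean chi-square of 2.43 to 131.7 a site. Replicates were separate mice.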

Additional observations from a re-analysis of the deposited data

Results flagged for a closer look

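The plain rule for a mouse far from its group used the gap to the nearest mouse over the range of the group (Dixon's 95% value). It was applied to 62 groups of 4 to 7 mice at 21 sites, and it marked 13. Its nominal rate is about 1 in 20. Some of the 21 sites, such as Wnt5a +7096, were added after their values were seen. Several marked values also rest on 1 or 2 methylated reads, so the 13 cannot be compared with that rate. AL-old 27 was marked at Fzd1 +499 (16.5%), Sfrp2 +203 (37.9%), Wnt3 +12721 (60.5%) and Wnt3 +13040 (15.3%), in each case away from the AL-young level. Its factor is 0.904 and its depth the lowest of the 17 mice, 6.43 M reads, and these values came from 75 of 419, 58 of 144, 90 of 143 and 20 of 122 reads. CR-old 06, whose factor is 1.80, was marked high at Fzd10 -139 (4.60%), Sfrp2 +17 (1.10%) and Wnt5a +7096 (4.40%). AL-old 08 was marked at Lrp5 +453 (10.96%) and AL-old 13 at Sfrp2 +17 (2.56%, 1 of 226 reads), both with high factors. In AL-young, mouse 28 was marked at Fzd10 +329 (2.16%, 1 of 75 reads) and at Wnt3 +13040 (95.3%), mouse 15 at Sfrp2 +17 (0.770%, 2 of 324 reads) and mouse 16 at Wnt7b +43729 (87.7%). The part of the correction or of any other cause in these values was not tested.

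At 3 sites every female of CR-old lay to one side of the mean of the other group's females and every male of CR-old to the opposite side of the mean of its males. The ranges of the groups overlapped among the females at each of these sites, each mouse was measured once, and the difference between the sexes was not tested. Females minus males, it was -1.88 points at Fzd1 +499 and 6.94 points at Wnt3 +12721 for CR-old minus AL-young, and -0.667 points at Wnt4 +426 for CR-old minus AL-old.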

How the results depend on the processing

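The count of Wnt sites higher in AL-old, 5 in the test reported, was 8 with the correction factor as an offset. It was 8 with the correction, as high or low, as a covariate, 11 with low-correction mice and 9 with limma. The offset and limma counts took the minimum difference on adjusted means, the other fits on raw means. The rule of the study on correlation with age, run on the 12 AL mice, gave 14, without a share over all sites to set beside it. These include Lrp5 -88, where the AL values that entered the mean hold no methylated read. Males alone, with the same AL-old mice as the low-correction fit, gave 3 and females alone 0. A minimum of 5 points (Fzd10 -139 and +236) or quasi-binomial regression (Fzd10 +4 and Lrp5 +453) gave 2. The count lower in AL-old, 0, was 1 with low-correction mice (Wnt3 +12721), where 325 of all 18884 sites were lower. The count lower in CR-old than AL-old, 0, was 4 with the offset or limma and 1 with low-correction mice (Fzd10 +236). The count of sites higher in CR-old than AL-young, 0, was 1 when only those groups were fitted. Leaving out each mouse gave 4 to 6 sites higher and 0 to 1 lower in AL-old, and 0 to 1 lower in CR-old than AL-old. The 1 lower in AL-old was Wnt3 +12721 without AL-old 14, and the 1 lower in CR-old was Fzd10 +236 without AL-old 08 or AL-old 10. The cause of these changes was not tested. Over all 18884 sites the calls for age were 747 higher and 1134 lower, against 1440 and 622 with the offset. Calls higher for age numbered 930 with the covariate, 1657 with low-correction mice, 1511 with limma, 322 in males and 51 in females. They numbered 582 with a minimum of 5 points and 268 with quasi-binomial regression. With low-correction mice 419 of all sites were lower in CR-old than AL-old, against 333 in the test reported. No site given in full reversed a called direction. At 50 reads a count of 0 allows a share of up to 6%. No paired analysis was possible because the groups share no mouse numbers.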
